A study of Mus musculus with 6 samples.

Results

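The genes of the proteasome are described here across mouse samples sorted as T cells from ischemic brain and from blood. A gene was taken if its symbol in the count table began with Psm, then a letter from a to g and a digit, if it was not one of the immunosubunits Psmb8, Psmb9 and Psmb10, and if it had at least 10 counts in at least 2 libraries. Of 24394 genes in the table, 50 had such a symbol, 47 were left without the immunosubunits and 46 passed the count minimum. The symbol left out was Psmb11, the catalytic subunit of thymic cortical epithelium, which had 8 and 5 counts in tMCAO brain libraries, 4 and 5 in tMCAO blood libraries and 3 and 0 in sham blood libraries.

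The study sorted CD8+CD122+CD49dlow T regulatory-like cells (TRLs), a subset of CD8+ T cells, and sequenced their RNA to compare TRLs in the brain and blood after stroke with TRLs in blood without stroke. There were 3 groups of 2 samples each, all sorted as TRLs. They came from the brain after transient middle cerebral artery occlusion (tMCAO), from the blood after tMCAO, and from the blood of sham-operated mice. In tMCAO, a stroke model, a filament blocks the artery and is then withdrawn. All 6 samples were labelled wild type, C57BL/6NCrl and 9 weeks old. They were taken 3 days after surgery, the occlusion lasted 60 min, and in sham surgery no artery was blocked. Each sample held 500 to 1000 sorted cells, amplified before sequencing. The labels do not say whether a sample was 1 mouse or a pool, and the study names animal and sample together without telling them apart. All p-values are therefore taken to measure the spread between these samples only, which may be technical.

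The proteasome is the main protease of the cytosol and nucleus, and it degrades proteins tagged with ubiquitin. Its 20S core is a barrel of alpha and beta rings in which 3 beta subunits cut the substrate, and its 19S cap recognises ubiquitin, removes it and unfolds the protein with a ring of ATPases. In leukocytes, and in other cells exposed to interferon, the 3 immunosubunits replace the constitutive catalytic subunits, and the PA28 activator, a ring of Psme1 and Psme2, can take the place of the cap.

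The libraries held 13793081 to 17149924 counts on genes. The tMCAO brain libraries went against their label as T cells: the summed level of 16 T cell markers, in CPM (counts relative to the library size, which was scaled by trimmed mean of M values), was 68.4 to 88.3 in tMCAO brain, against 12193 to 16860 in tMCAO blood and 11372 to 11531 in sham blood. All 16 were lower in tMCAO brain than in either blood group, though none was at 0 counts in both tMCAO brain libraries, and Cd8b1, which codes for a chain of CD8, had 6.54 and 8.41 CPM there. The summed level of 12 microglia markers was 9687 to 20778 CPM in tMCAO brain, 196 to 267 CPM in tMCAO blood and 189 to 256 CPM in sham blood, with 2 of the 12 at 0 counts in both tMCAO blood libraries and 7 in both sham libraries. The summed level of 15 monocyte and macrophage markers was 25393 to 29893, 1200 to 1580 and 2109 to 3484 CPM in the same order of groups. Lyz2 alone had 17452 and 12424 CPM in tMCAO brain. Of the 15, 13 were called higher and 1 lower over sham blood, and 14 and 1 over tMCAO blood. The lower one was Ly6c2, at 84.3 and 52.0 CPM in tMCAO brain, 927 and 1366 in tMCAO blood and 1393 and 1179 in sham blood. The part of these marker differences in every result on tMCAO brain below was not tested, and without these libraries neither comparison with tMCAO brain can be made.

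The 46 genes fell into roles as follows: 8 of the alpha ring, 4 structural and 3 catalytic beta subunits, 6 ATPases and 3 other subunits of the 19S base, 8 of the 19S lid, 4 chaperones of 20S assembly, 3 of 19S assembly, 5 of the PA28 and PA200 activators and 1 inhibitor, PI31 (Psmf1). The last, Psmc3ip, shares only the name and is a cofactor of meiotic recombination. Leaving out Psma8, 31 genes code for the standard 20S and 19S subunits. All were detected in every library. Per kilobase of transcript, their median level was 177 CPM per kb in tMCAO brain, 168 in tMCAO blood and 127 in sham blood. The lid subunit Psmd3 was the lowest of the 31 in each group, at 39.9, 22.6 and 22.3 CPM per kb in tMCAO brain, tMCAO blood and sham blood. The catalytic subunit Psmb6 was the highest in tMCAO brain (588 CPM per kb), the structural subunit Psmb3 in tMCAO blood (755) and the alpha subunit Psma1 in sham blood (452). Among 20S subunits the median level was above that among 19S subunits by 2.34 times in tMCAO brain, 2.68 times in tMCAO blood and 2.69 times in sham blood. As fewer cells of a type and less RNA per cell cannot be told apart in bulk samples, these levels describe the libraries and not single cells.

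Against sham blood, most proteasome genes differed little in tMCAO brain. Of 46 genes, 3 were higher and 1 was lower at an adjusted p under 0.05 and a fold over 2 (edgeR's quasi-likelihood test with Benjamini-Hochberg adjustment over 12424 genes), against 18.7% of all genes tested called higher and 11.8% called lower. Among the 3 was Psma8, which passed the count minimum only through the tMCAO brain libraries, so that its call follows from that selection. The median log2 fold change of the 46 was 0.11, beside 0.13 for all genes, and the median size of the change, in either direction, was 0.39 on the log2 scale beside 0.98. A fold over 2, called or not, was seen in 6 of the 46, against 49.4% of all genes. At an unadjusted p under 0.05 there were 10 of the 46, beside 43.2% of all genes, and the libraries of the groups did not overlap for 23 genes higher and 18 lower in tMCAO brain, beside 43.1% and 35.8% of all genes. Scaling decided where 0 lay: with libraries scaled to equal T cell markers the median of all genes moved to 7.24 and all 46 genes were called higher, as were 94.99% of all genes. With library size alone the median moved to -0.44 with 1 gene called higher and 7 lower, beside 12.9% and 21.8% of all genes. Relative to the median of all genes, the median of the 46 stayed at -0.03 with trimmed means, -0.03 with library size and -0.01 with T cell markers. Leaving out either tMCAO brain library left 0 of the 46 called, and leaving out either sham library left Psma8 alone. A fit without 1 library keeps 1 sample in that group, which is assumed to vary like the other groups.

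**Figure D1:**
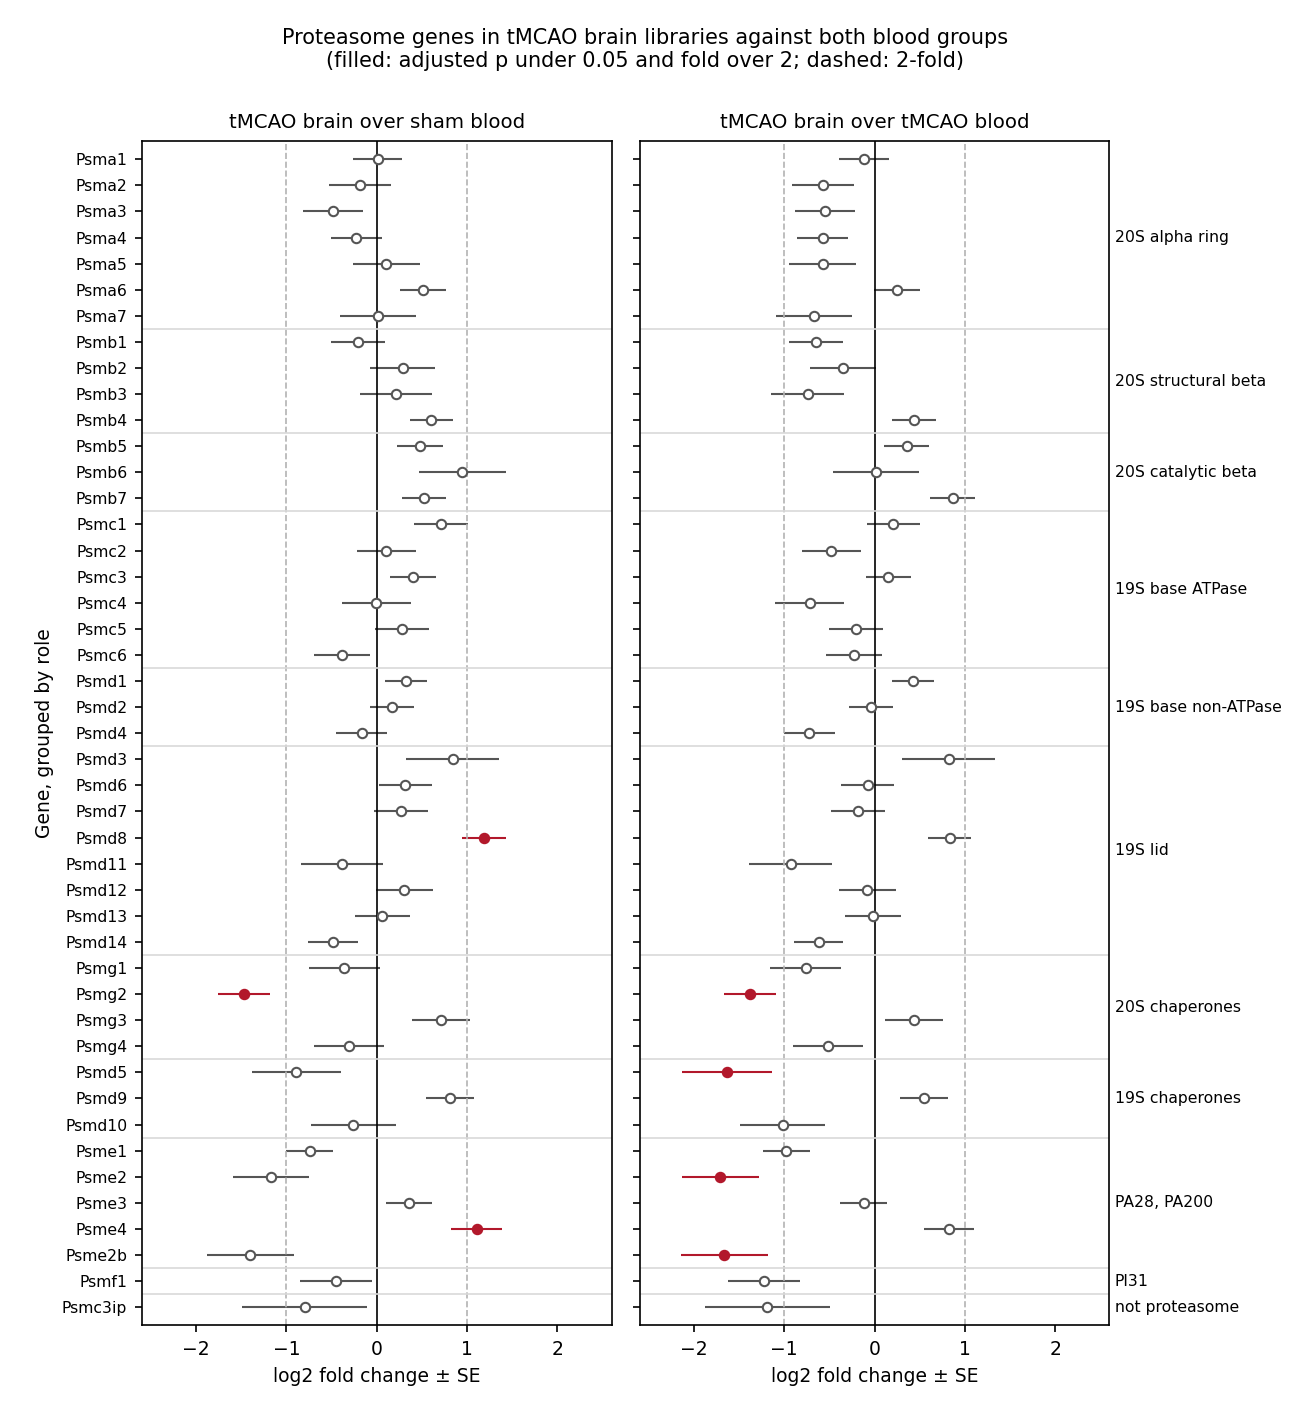
Log2 fold change with its standard error for 45 proteasome genes in tMCAO brain over sham blood (left) and over tMCAO blood (right), grouped by role; filled points had an adjusted p under 0.05 and a fold over 2, and Psma8, at 0 counts in all blood libraries, is not drawn. Most points lie within 2-fold of 0, the called genes are Psmd8, Psme4 and Psmg2 on the left and Psmg2, Psmd5, Psme2 and Psme2b on the right, and all points turn positive if the libraries are scaled to T cell markers.

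The catalytic subunits were among the genes with the higher values in tMCAO brain, but none was called. Psmb5, the chymotrypsin-like subunit, had 265 and 218 CPM in tMCAO brain, 183 and 194 in tMCAO blood and 191 and 155 in sham blood. Psmb6, the caspase-like subunit, had 461 and 478 CPM in tMCAO brain, 231 and 695 in tMCAO blood and 244 and 243 in sham blood. Psmb7, the trypsin-like subunit, had 145 and 129 CPM in tMCAO brain, 82.5 and 67.9 in tMCAO blood and 99.1 and 91.1 in sham blood. For all 3 genes both tMCAO brain libraries lay above both sham libraries, and for Psmb6 the tMCAO blood libraries stood on either side of the tMCAO brain pair. Over sham blood the log2 fold changes were 0.48 ± 0.25 for Psmb5, 0.95 ± 0.48 for Psmb6 and 0.52 ± 0.24 for Psmb7 (SE; edgeR adjusted p = 0.194, 0.177 and 0.149). With library size alone the values of Psmb5 and Psmb7 were -0.09 and -0.05. Over tMCAO blood Psmb7 passed the adjusted p but not the 2-fold minimum, at 0.86 ± 0.25 (edgeR adjusted p = 0.0333), while Psmb5 was at 0.35 and Psmb6 at 0.02. As much as 40.0% of the 75-base windows of the Psmb5 transcript also occur in the transcripts Gm3375 and Mir686, and 24.1% of those of Psmb7 occur in the antisense neighbour Nek6, so these counts carry that uncertainty.

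The immunosubunits, which lie outside the 46 genes and take the places of these 3 subunits, had the opposite order of levels. Psmb8, the counterpart of Psmb5, had 450 and 456 CPM in tMCAO brain, 1193 and 2177 in tMCAO blood and 1132 and 1032 in sham blood. Psmb9, the counterpart of Psmb6, had 67.7 and 63.3 CPM in tMCAO brain, 236 and 257 in tMCAO blood and 254 and 215 in sham blood. Of the 75-base windows of the Psmb9 transcript, 10.8% also occur in the antisense neighbour Tap1, so its counts carry that uncertainty. Psmb10, the counterpart of Psmb7, had 144 and 128 CPM in tMCAO brain, 226 and 371 in tMCAO blood and 239 and 223 in sham blood. No tMCAO brain library reached the lowest blood library for any of the 3. Over sham blood Psmb9 fell by 1.84 ± 0.25 and Psmb8 by 1.26 ± 0.34 on the log2 scale, while Psmb10, at -0.76, was not called (SE; edgeR adjusted p = 0.00222, 0.0316 and 0.0967). Over tMCAO blood all 3 fell, Psmb9 by 1.91, Psmb8 by 1.90 and Psmb10 by 1.13 (edgeR adjusted p = 0.00161, 0.00666 and 0.0275), and the Psmb10 call was lost with the replicate number as a block and without tMCAO blood library 2, among others. The Psmb8 call over sham blood was lost without either tMCAO brain library and without either sham library, and the one over tMCAO blood without tMCAO brain library 1. These directions turned under T cell marker scaling, where 94.99% of all genes were called higher over sham blood and 95.4% over tMCAO blood.

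A ratio within a library does not depend on how libraries are scaled. Of the summed level of the 6 catalytic genes per kb, the immunosubunits made up 30.5% and 30.8% in tMCAO brain, 65.7% and 61.3% in tMCAO blood and 63.8% and 63.4% in sham blood. The mean share was 30.6% ± 0.260 in tMCAO brain, 63.5% ± 3.11 in tMCAO blood and 63.6% ± 0.287 in sham blood (SD, n = 2 each), so that tMCAO brain stood apart from both blood groups by about 33 percentage points (-33.0 against sham blood and -32.8 against tMCAO blood). With 2 libraries a group an exact two-sided permutation test cannot give a p under 0.333, which is the value it gave for both. Counts of Psmb8 per count of Psmb5 were 1.70 and 2.09 in tMCAO brain, 6.51 and 11.2 in tMCAO blood and 5.92 and 6.64 in sham blood. For Psmb9 per count of Psmb6 they were 0.147 and 0.132 in tMCAO brain, 1.02 and 0.370 in tMCAO blood and 1.04 and 0.886 in sham blood. For Psmb10 per count of Psmb7 they were 0.996 and 0.996 in tMCAO brain, 2.74 and 5.46 in tMCAO blood and 2.41 and 2.45 in sham blood. In each of the 3 pairs both tMCAO brain libraries lay below all 4 blood libraries.

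**Figure D2:**
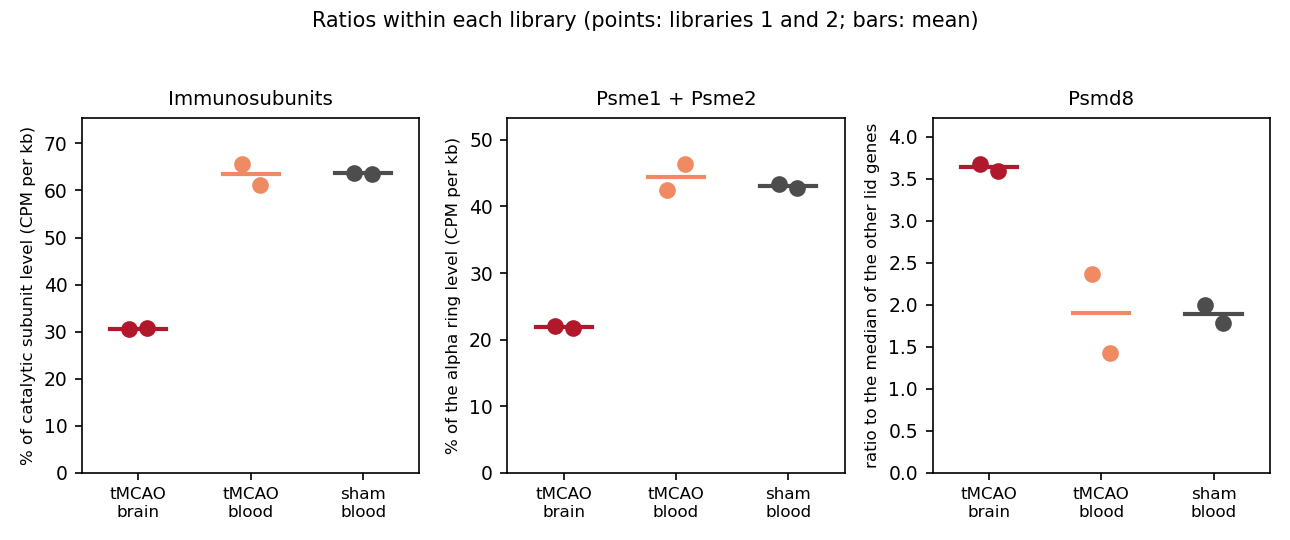
Ratios within each library for tMCAO brain, tMCAO blood and sham blood: the immunosubunits in percent of the summed catalytic subunit level (left), Psme1 plus Psme2 in percent of the summed alpha ring level (middle), both in CPM per kb, and Psmd8 over the median of the other 19S lid genes (right); points are libraries and bars their mean. The tMCAO brain libraries sit at 30.5% and 30.8% for the immunosubunits and near 22% for PA28, below all 4 blood libraries, and above all 4 for Psmd8.

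The PA28 genes, like the immunosubunits, had lower levels in tMCAO brain than in blood. This direction turned under T cell marker scaling, which moved the median of all genes to 7.24 over sham blood. Psme1 (PA28 alpha, chr14:55578123-55581529 in GRCm38) had 245 and 250 CPM in tMCAO brain, 420 and 554 in tMCAO blood and 421 and 407 in sham blood. Psme2 (PA28 beta, chr14:55587441-55591113) had 227 and 205 CPM in tMCAO brain, 407 and 1002 in tMCAO blood and 501 and 470 in sham blood. Both genes were lower in each tMCAO brain library than in any blood library. Over tMCAO blood Psme2 fell by 1.71 ± 0.43 on the log2 scale (edgeR adjusted p = 0.0216), and Psme1, at -0.98 ± 0.26, passed the adjusted p but not the fold minimum (edgeR adjusted p = 0.0259). Over sham blood Psme2 was at -1.17 ± 0.42 and Psme1 at -0.74 ± 0.26, and neither was called (edgeR adjusted p = 0.0746 and 0.0659). DESeq2 called Psme2 lower in both comparisons. The edgeR call over tMCAO blood was lost without tMCAO blood library 2. Over sham blood edgeR called Psme2 lower without tMCAO blood library 1, without tMCAO blood library 2, in the fit of the 2 groups alone and with library size alone. Psme1 and Psme2 together came to 22.0% and 21.8% of the summed alpha ring level in tMCAO brain, 42.4% and 46.4% in tMCAO blood and 43.4% and 42.8% in sham blood, so the 2 genes stood lower against the core they bind to in both tMCAO brain libraries. The intronless copy Psme2b, at chr11:48945354-48946190, had 6.08 and 6.31 CPM in tMCAO brain, 12.2 and 27.1 in tMCAO blood and 17.3 and 15.4 in sham blood. It was called over tMCAO blood (log2 fold change -1.66, edgeR adjusted p = 0.0357) and in 7 of 16 alternatives. Of its 75-base windows 60.2% are also in Psme2, and 51.7% of those of Psme2 are in Psme2b. Reads without a unique alignment were not counted, so both genes may be undercounted. Reads of either copy may still be placed on the other, so the 2 cannot be told apart with certainty.

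The other activators had another order. Psme4, the PA200 activator, which in mouse testis acts in the removal of histones, had 48.38 and 53.60 CPM in tMCAO brain, 27.79 and 29.87 in tMCAO blood and 24.98 and 22.33 in sham blood. It was called higher over sham blood, at a log2 fold change of 1.11 ± 0.28 (edgeR adjusted p = 0.0248), and over tMCAO blood it was at 0.82 ± 0.28 (edgeR adjusted p = 0.0591). The first call held in 9 of 18 alternatives. It was lost with library size alone, on the deposited FPKM values, without tMCAO blood library 2 and in the edgeR fit of the 2 groups alone, among others. Psme3, PA28 gamma of the nucleus, had 93.2 and 71.3 CPM in tMCAO brain, 93.7 and 85.4 in tMCAO blood and 62.6 and 65.9 in sham blood, with no call. Psmf1, the PI31 inhibitor of the 20S core, had 56.0 and 78.4 CPM in tMCAO brain, 98.9 and 215 in tMCAO blood and 94.4 and 89.5 in sham blood, and its log2 fold change over tMCAO blood was -1.22 ± 0.40 (edgeR adjusted p = 0.0519).

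**Figure D3:**
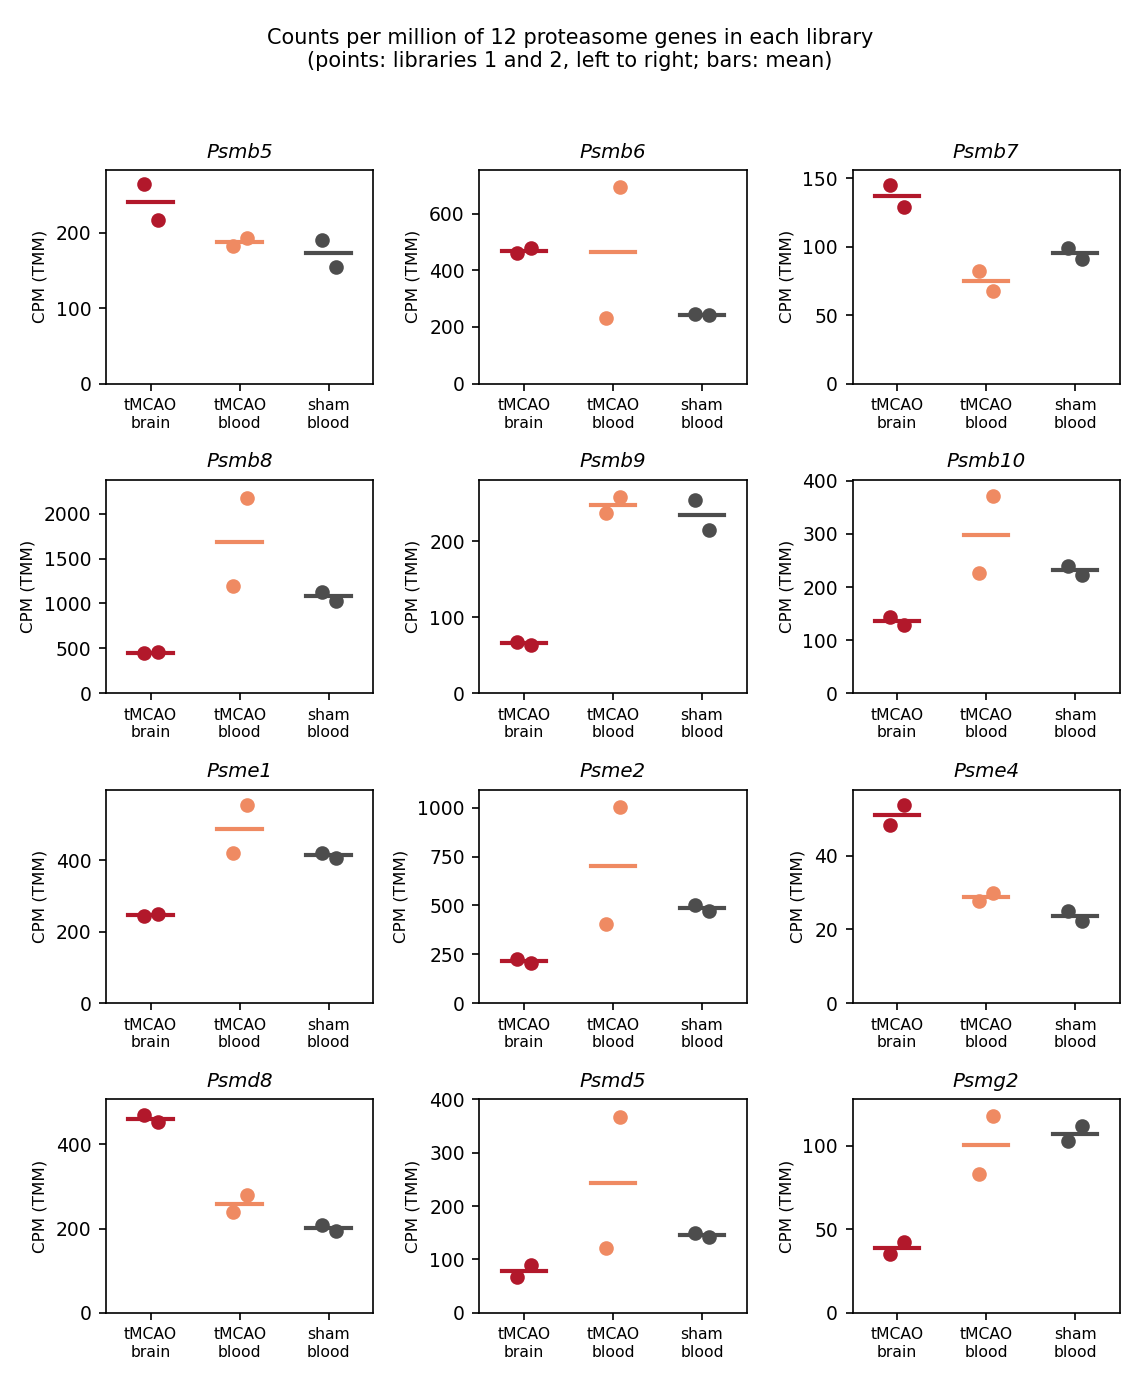
CPM of 12 proteasome genes, including the 3 immunosubunits, in each library of tMCAO brain, tMCAO blood and sham blood; each panel starts at 0, points are libraries and bars their mean. The tMCAO brain pair lies above all blood libraries for Psmb5, Psmb7, Psme4 and Psmd8 and below them for Psmb8, Psmb9, Psmb10, Psme1, Psme2, Psmd5 and Psmg2, and the tMCAO blood pair is far apart for Psmb6, Psme2 and Psmd5.

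Within the 20S core 1 gene was called. Psma8, an alpha subunit of the testis-specific proteasome at chr18:14706151-14762301, had 76 and 112 counts in tMCAO brain libraries and 0 counts in all 4 blood libraries. With 3 counts summed over the libraries of a blood group taken as the limit that 0 counts allow, it was at least 112-fold higher than in sham blood and at least 105-fold higher than in tMCAO blood. This bound covers counting error only, since amplified reads are not independent molecules, and the gene entered the tests only through its tMCAO brain counts. Its level stayed low, at 8.62 ± 2.29 CPM in tMCAO brain (SD, n = 2), and none of its 75-base windows was shared with another transcript. The 7 standard alpha genes had log2 fold changes over sham blood between -0.48 (Psma3) and 0.51 (Psma6), with no call. The 4 structural beta genes lay between -0.20 (Psmb1) and 0.60 (Psmb4), with no call. Over tMCAO blood 6 of the 7 standard alpha genes and 3 of the 4 structural beta genes had negative values, down to -0.67 for Psma7 and -0.74 for Psmb3, and none was called.

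Within the 19S cap the lid subunit Psmd8, which in yeast joins the lid last during assembly, was the called gene. It had 469 and 452 CPM in tMCAO brain, 239 and 279 in tMCAO blood and 209 and 195 in sham blood. Over sham blood it rose by 1.19 ± 0.24 on the log2 scale (edgeR adjusted p = 0.0111). Over tMCAO blood it was at 0.83 ± 0.24 (edgeR adjusted p = 0.0351), under the fold minimum. The call over sham blood held in 11 of 18 alternatives and was lost with library size alone and on the deposited FPKM values, among others. Set against the median of the other lid genes in the same library, Psmd8 stood at 3.68 and 3.59 in tMCAO brain, 2.37 and 1.43 in tMCAO blood and 2.00 and 1.78 in sham blood, with no overlap between tMCAO brain and the blood libraries. The other 7 lid genes lay between -0.48 (Psmd14, the deubiquitinase of the lid) and 0.84 (Psmd3) over sham blood. The 6 base ATPases lay between -0.39 (Psmc6) and 0.71 (Psmc1), and the 3 other base subunits between -0.17 (Psmd4, a ubiquitin receptor) and 0.33 (Psmd1), with no call in either comparison with tMCAO brain.

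The assembly chaperones held 2 of the called genes. Psmg2, which with Psmg1 guides the alpha ring together and lies at chr18:67641599-67654162, had 35.1 and 42.1 CPM in tMCAO brain, 83.0 and 118 in tMCAO blood and 103 and 112 in sham blood. It fell by 1.47 ± 0.29 over sham blood and by 1.38 ± 0.28 over tMCAO blood on the log2 scale (edgeR adjusted p = 0.00914 and 0.0104). Outside T cell marker scaling the sign of both was the same in every alternative run, and the calls were lost without either tMCAO brain library, over sham blood also without either sham library. Its partner Psmg1 was at -0.36 and -0.76 in the 2 comparisons, and Psmg4, which acts with Psmg3 at the same step, at -0.31 and -0.51. Psmg3 went the other way without a call, at 0.71 and 0.44. Psmd5, a chaperone of the 19S base, had 67.8 and 89.0 CPM in tMCAO brain, 121 and 366 in tMCAO blood and 149 and 142 in sham blood. It fell by 1.64 ± 0.50 over tMCAO blood (edgeR adjusted p = 0.0413), a call that was lost with limma-voom and without tMCAO blood library 2, among others, and over sham blood it was at -0.89 ± 0.49. The other base chaperones were Psmd9, at 0.81 ± 0.27 over sham blood (edgeR adjusted p = 0.0571), and Psmd10, at -0.26.

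Over tMCAO blood, then, 1 of the 46 genes, Psma8, was called higher and 4 lower in tMCAO brain, where 20.4% and 13.2% of all genes were called. Of these 4, Psmg2, Psme2, Psme2b and Psmd5, none codes for a subunit of the standard 20S core or 19S cap. Without the fold minimum the counts were 3 higher (Psma8, Psmb7 and Psmd8) and 5 lower (with Psme1), beside 20.9% and 14.2% of all genes. The median log2 fold change was -0.29, beside 0.05 for all genes, and 8 of the 46 passed 2-fold, against 51.5% of all genes. An unadjusted p under 0.05 was found for 11 of the 46 (45.8% of all genes), and libraries that did not overlap for 10 genes higher and 16 lower (37.6% and 30.9% of all genes). The tMCAO blood libraries gave different values. Without library 1 the median was -0.67, beside 0.28 for all genes, with 3 genes called higher and 14 lower, beside 24.4% and 16.4% of all genes. Without library 2 it was -0.04, beside 0.04 for all genes, with 1 higher and 1 lower, beside 17.3% and 14.0%. All calls were lost without either tMCAO brain library. This comparison shares its tMCAO brain libraries with the one against sham blood.

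Between tMCAO blood and sham blood no proteasome gene was called. The counts were 0 higher and 0 lower with edgeR, beside 0.0% and 0.821% of all genes, and DESeq2 also gave 0. At an unadjusted p under 0.05 the edgeR count was 0 of the 46, beside 7.81% of all genes, and 0 passed 2-fold, beside 16.9% of all genes. The median log2 fold change was 0.37, beside 0.03 for all genes, and the libraries of the groups did not overlap for 16 genes that were higher in tMCAO blood and 2 that were lower, where 17.0% and 18.6% of all genes did not overlap. Psmb3 had 349 and 808 CPM in tMCAO blood libraries and 315 and 283 CPM in sham blood, a log2 fold change of 0.95 ± 0.40 (edgeR adjusted p = 0.639). Psmd4 had 284 and 433 CPM in tMCAO blood and 245 and 244 in sham blood (0.55 ± 0.28, edgeR adjusted p = 0.696), and Psmf1 was at 0.77 ± 0.40 (edgeR adjusted p = 0.699). The lowest p-values among negative values belonged to Psmb7 (-0.34 ± 0.24), Psmc6 (-0.16 ± 0.31), at 140 and 237 CPM in tMCAO blood and 199 and 221 in sham blood, and Psmd1 (-0.10 ± 0.23), at 181 and 171 CPM in tMCAO blood and 189 and 187 in sham blood. Markers of other cells moved with these groups: 9 B cell markers summed to 31.0 to 89.4 CPM in tMCAO blood and 713 to 1218 CPM in sham blood, with 3 of the 8 tested called lower. Of the 15 monocyte and macrophage markers, 7 were called lower in tMCAO blood than in sham blood. The part of both lists in these values was not tested.

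The tMCAO blood libraries differed from each other in the median of these genes. In log2 CPM, library 2 over library 1, the median over 45 genes was 0.68 in tMCAO blood, beside -0.03 for all genes detected there, and it was -0.05 in tMCAO brain and -0.05 in sham blood. A difference over 2-fold was found for 15 of the 45 genes in tMCAO blood, 14 of them higher in library 2, for 0 in tMCAO brain and for 1 in sham blood (Psmc3ip, at 10.2 and 4.62 CPM). Of all genes detected in each group, 33.2%, 14.6% and 12.6% differed over 2-fold in tMCAO blood, tMCAO brain and sham blood, so the count in tMCAO blood was near the share of all genes there. Psmd5 had the largest ratio, at 1.60 on the log2 scale, and Psmd3 went the other way at -1.71, with 74.4 CPM in library 1 and 22.7 in library 2. All 46 genes together took 1.11% and 1.57% of the counts on genes in tMCAO blood, beside 0.773% and 0.742% in tMCAO brain and 1.12% and 1.08% in sham blood. Without library 1, 11 of the 46 genes were called higher and 0 lower in tMCAO blood than in sham blood, beside 2.17% and 3.58% of all genes. Their median log2 fold change was then 0.64, beside -0.09 for all genes, and without library 2 there were 0 calls with a median of 0.00.

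**Figure D4:**
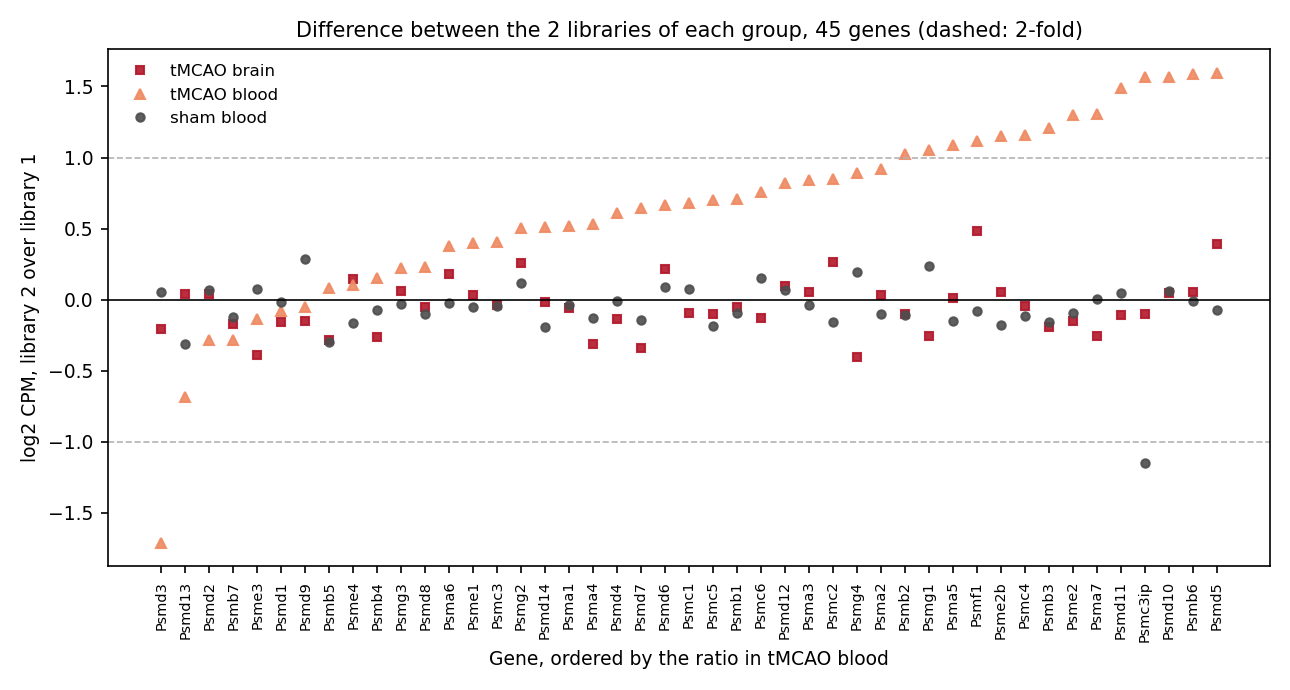
Log2 ratio of CPM between library 2 and library 1 of tMCAO brain, tMCAO blood and sham blood for 45 proteasome genes, ordered by the ratio in tMCAO blood (Psma8, at 0 in blood, is not drawn). The tMCAO blood triangles run between -1.71 (Psmd3) and 1.60 (Psmd5), while the points of the other groups stay within 2-fold but for Psmc3ip in sham blood.

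Genes around the proteasome were listed as factors that bind it, activate its transcription or activate ubiquitin. Of 22 associated factors tested, 2 were called higher and 1 lower in tMCAO brain over sham blood, beside 18.7% and 11.8% of all genes, so neither count stood above that background. Nfe2l2, a transcription factor of the oxidative stress response, had 752 and 607 CPM in tMCAO brain, 71.6 and 92.1 in tMCAO blood and 87.6 and 73.2 in sham blood, with a log2 fold change of 3.08 ± 0.29 over sham blood. Its relative Nfe2l1, which drives proteasome genes when the proteasome is inhibited, had 11.3 and 9.24 CPM in tMCAO brain, 5.64 and 1.87 in tMCAO blood and 5.15 and 4.52 in sham blood and was not called. Zfand5, a proteasome-binding zinc finger protein, rose by 2.49 over sham blood, and Ngly1, the glycanase that processes Nfe2l1, fell by 1.84. These 3 genes were also called in the same directions over tMCAO blood, at 3.05, 3.06 and -2.47, and none was called between the blood groups. Uba6, an activating enzyme of ubiquitin, fell by 1.35 on the log2 scale over sham blood.

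The letters TGACNNNGC, the core of the antioxidant response element that Nfe2l1 and Nfe2l2 bind, were searched on both strands of RefSeq promoter windows of 300 bases (GRCm38.p6, 250 before and 50 after the start). They were found for 6 of the 38 proteasome genes that have a window, 15.8%, beside 14.0% of 27025 genes, so the share was near that of all promoters. CCAAT was found for 13 of the 38, 34.2%, beside 41.1%. The sites of 4 genes within 50 bases of the start are shown, that of Psmb5 because it is a catalytic subunit. The other 3, Psmb6, Psmd9 and Psme4, were picked as genes with the larger positive changes over sham blood in these data. Of the 4 only Psme4 was called over sham blood, and a link between sites and changes was not tested. The matched letters are in capitals, and for Psme4 they read on the opposite strand.
Psmb5: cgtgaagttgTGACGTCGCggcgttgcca
Psmb6: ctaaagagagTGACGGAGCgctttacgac
Psmd9: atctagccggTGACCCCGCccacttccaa
Psme4: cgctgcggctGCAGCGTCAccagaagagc
The printed stretches lie at chr14:54618024-54618052 on the minus strand for Psmb5, and on the plus strand at chr11:70525338-70525366 for Psmb6, chr5:123228149-123228177 for Psmd9 and chr11:30771758-30771786 for Psme4. Their first matched letters lie 47, 9, 31 and 7 bases before the RefSeq start, and the match of Psme4 runs across the start. The other 2 genes with the letters were Psmc6, at -0.39 over sham blood, and Psmd12, at 0.30. A match is a description of the letters only, and binding was not measured.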

How the data were processed

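RNA of 6 sorted samples was sequenced in paired reads of 75 bases; per the labels and the study's methods the reads were aligned with TopHat to GRCm38 (mm10). The authors deposited counts per gene without normalization and FPKM (fragments scaled to transcript length and library size) from Cufflinks 2.2.1. Counts were the unit of the tests here, apart from limma fits on FPKM and permutation tests on ratios within a library. The study itself tested with DESeq2 1.30.1. From the counts, 27 lines whose symbols had turned into dates and 5 lines that name no gene were left out; the latter hold reads on no gene (43.0% to 45.6% of the column totals) and reads without a unique alignment (14.0% to 22.0%). The counter's strand setting is not given in the sources used here, so antisense neighbours cannot be told apart.

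Counts were filtered with filterByExpr (minimum 10, total 15), scaled by trimmed mean of M values and fitted in 1 model of all 6 samples with edgeR 4.0.16 (R 4.3.3; limma 3.58.1 and DESeq2 1.42.0 as alternatives), with 3 residual degrees of freedom. Calls needed a Benjamini-Hochberg adjusted p under 0.05 over 12424 genes and a fold over 2. Data were also simulated from these samples with few changed genes, unlike the comparisons with tMCAO brain. Recovery there needed an adjusted p under 0.05 and the right direction, with no fold minimum. It was 0% to 2.99% for 2-fold, 53.7% to 58.2% for 4-fold and 86.4% to 92.4% for 8-fold changes. CPM per kb used the length of the principal transcript in GENCODE M21, where 46 of 46 genes matched by symbol. The immunosubunit share had been planned on FPKM, but Psmb8 or Psmb10 had no own FPKM value in 2 libraries, so it was computed from counts. For per-gene FPKM, 42 of the 46 genes had a value of their own in all libraries.

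The genes, gene lists and tests were chosen with earlier results of these data known. Genes with values per library were the catalytic subunits, Psme1, Psme2, every called gene (or the 3 higher and 3 lower with the smallest p), Psma8, Psmb11, Psme2b, Psmc3ip and the immunosubunits, and up to 4 genes of another list; Psme3, Psmf1, Psmg1, Psmg3, Psmg4, Psmd3, Psmd9, Psmd10, Nfe2l1 and the ends of each range were named after their values were seen. Same-numbered samples did not deviate together. The correlations were -0.02 for tMCAO blood and sham blood, -0.03 for tMCAO brain and sham blood and 0.03 for tMCAO brain and tMCAO blood. These values cannot decide whether the numbers pair samples, because the spread between samples may be technical and could hide a shared origin.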

Additional observations from a re-analysis of the deposited data

How the results depend on the processing

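With libraries scaled to equal T cell markers, 46 genes were called higher and 0 lower in both comparisons with tMCAO brain (94.99% and 95.4% of all genes were higher). The medians were 7.23 over sham blood and 6.99 over tMCAO blood. Every negative value of the 46 genes and of the immunosubunits turned positive. Over sham blood the values were 5.66 for Psmg2, 6.37 for Psme1, 5.93 for Psme2, 5.71 for Psme2b, 5.86 for Psmb8, 5.26 for Psmb9 and 6.33 for Psmb10. Over tMCAO blood they were 5.92 for Psmg2, 5.56 for Psme2, 5.62 for Psme2b, 5.67 for Psmd5, 6.31 for Psme1, 5.39 for Psmb8, 5.36 for Psmb9 and 6.14 for Psmb10. With library size alone 1 gene was higher and 7 lower over sham blood, beside 12.9% and 21.8% of all genes (median -0.46; Psmb5 -0.091, Psmb7 -0.046), and 1 higher and 19 lower over tMCAO blood, beside 15.6% and 23.0% (median -0.74; Psmb5 -0.13, Psmb6 -0.40). On log2(FPKM + 1) and log2(FPKM + 0.1), 41 of the 46 genes were tested. Of these, 4 and 4 were lower over sham blood (medians -0.31 and -0.31) and 10 and 9 over tMCAO blood (medians -0.65 and -0.65). Psmb6 was then at -0.038 and -0.037 over tMCAO blood. Of all genes, 19.6% and 19.8% were lower over sham blood and 21.3% and 21.7% over tMCAO blood. In the edgeR fit of the 2 groups alone 4 genes were lower over sham blood (median -0.013; 17.4% of all genes) and 2 over tMCAO blood (10.4%), where limma-voom also gave 2 (12.3%). DESeq2 on all samples and on the 2 groups gave 3 lower over sham blood (14.5% and 17.7%). At an adjusted p under 0.01, 1 gene was higher over sham blood and 0 were lower over tMCAO blood. The share of all genes at that threshold was not counted. Without a fold minimum 3 genes were higher over tMCAO blood, beside 20.9% of all genes. A minimum of 1 CPM in all libraries removed Psma8 and left 0 higher over tMCAO blood, beside 15.9% of all genes. The cause of these shifts was not tested, apart from genes removed by a filter.

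Leaving out 1 library gave 0 to 3 genes higher and 0 to 4 lower over sham blood (medians -0.0075 to 0.18), 0 to 3 higher and 0 to 14 lower over tMCAO blood (medians -0.67 to -0.043; Psmb6 between -0.57 and 0.94), and 0 to 11 higher and 0 to 0 lower between the blood groups (medians -0.0014 to 0.64; Psmc6 between -0.62 and 0.17). The share of immunosubunits by single library was 30.5% to 30.8% in tMCAO brain, 61.3% to 65.7% in tMCAO blood and 63.4% to 63.8% in sham blood. On the deposited FPKM it was 34.4%, 71.2% and 67.8% (2, 1 and 1 libraries) in the same order of groups. From counts, Psmb8 made up 51.0%, 82.2% and 77.6% of Psmb8 and Psmb5 in that order. The fit with the replicate number as a block gave 3 higher and 1 lower over sham blood, beside 15.7% and 10.5% of all genes. It gave 1 and 3 over tMCAO blood, beside 17.5% and 11.1%, and 0 and 0 between the blood groups, beside 0.0% and 0.580%. Apart from Psme2b and Psmb10 over tMCAO blood, the block changed no call of the 46 genes, nor of the immunosubunits in the comparisons with tMCAO brain. The calls of Nfe2l2, Zfand5, Ngly1 and Uba6 were not followed in the alternatives. The simulated data, in which few genes changed, mostly missed 2-fold changes, so they do not set the reach of the comparisons with tMCAO brain. There Psmd8 and Psme4 were called over sham blood at log2 fold changes of 1.19 and 1.11, calls that some alternatives lost.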
